A study of Bos taurus with 15 samples.

Results

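The 10 genes described here form the interferon tau pathway as it meets the uterus: the ligand gene IFNT2, the receptor subunits IFNAR1 and IFNAR2, the kinases JAK1 and TYK2, the transcription factors IRF1, IRF2 and IRF3, and the inhibitors SOCS1 and SOCS3. They were chosen by symbol, as the rows of the deposited table that carry one of these names. All 10 were found among 32671 gene entries, and all 10 were among the 19962 genes that passed the filter on low counts. Transcripts were counted in endometrium, the lining of the uterus, biopsied on day 14 of pregnancy from beef heifers (Bos taurus), with 5 animals labelled High-fertile, 5 Sub-fertile and 5 Infertile. Every heifer, whatever its class, had its estrus synchronised with prostaglandin, gonadotropin-releasing hormone, progesterone and estradiol, and received an in vivo-produced embryo on day 7 in the horn beside the corpus luteum. The biopsy came from that horn, following a flush of the uterus. The basis of the fertility classes and the outcome of the flush are unknown here, so an animal with a live conceptus cannot be told apart from one without. Each library is 1 heifer, named below by class and replicate number, which follows the order of deposition and pairs no animals. The labels do not state their ages.

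In ruminants, interferon tau is the signal by which the conceptus makes itself known to the mother. It is secreted by the trophectoderm, the outer layer of the elongating embryo, and binds the type I interferon receptor on endometrial cells. The receptor subunits carry the kinases TYK2 and JAK1, which phosphorylate transcription factors of the STAT family. With IRF9 these form the complex that turns on interferon-stimulated genes (ISGs) such as ISG15 and MX1. IRF1 is itself induced by interferon and activates many of the same genes, while IRF2 binds the same promoter elements and largely represses them. IRF3 is made constitutively and acts after it is phosphorylated in response to viral or other foreign nucleic acid. SOCS1 and SOCS3 are induced by cytokines and shut the kinases down.

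The libraries held 38017136 to 62858724 counts. The labels name no batch, but the counts of 372 genes described as pseudogenes or ribosomal RNA split the libraries, by clustering without use of the class, into sets of 8, 5 and 2. The set of 5 holds Sub-fertile 1, 2 and 5 and Infertile 3 and 5, and no High-fertile animal. The set of 2 holds High-fertile 1 and Infertile 2, and the other 8 libraries form the largest set. Since the set of 5 lies wholly in the lower fertility classes, each difference of a member from the High-fertile class is given below also with set as a covariate. Values within the set of 8 rest on 4 High-fertile, 2 Sub-fertile and 2 Infertile libraries. The markers fixed for the tissue were present in every library: all 8 epithelial markers and all 6 uterine markers had counts in all 15. Summed epithelial markers stood at 576 to 1569 CPM. Smooth muscle markers ranged more widely, from 532 to 21847 CPM. CPM here is the count scaled to library size and TMM factor. Library size is the total over the genes tested for single genes, and over all gene entries for summed markers.

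Per unit of gene length, JAK1 was the most abundant of the 10 transcripts and IFNT2 the least. In deposited FPKM, which scales fragments by gene length and library size, the mean over 15 libraries was 60.3 ± 7.56 (SD, n = 15) for JAK1, 46.8 ± 7.90 for IRF2 and 35.9 ± 9.30 for IRF3. IFNAR1 followed at an FPKM of 30.1 ± 3.86, ahead of TYK2 at 18.9 ± 2.04, IFNAR2 at 15.8 ± 2.53 and IRF1 at 15.3 ± 5.17. The inhibitors were lower, at an FPKM of 4.89 ± 2.15 for SOCS3 and 1.35 ± 0.387 for SOCS1, and IFNT2 stood at 0.602 ± 0.242. JAK1 was above IRF2, IFNAR1 above TYK2, IRF1 above SOCS3 and SOCS3 above SOCS1 in 15 of 15 libraries. SOCS1 was above IFNT2 in 14. Neighbours that changed places were IRF3 and IFNAR1, with IRF3 higher in 9 of 15, and IFNAR2 and IRF1, with IFNAR2 higher in 8 of 15. IRF2 was above IRF3 in 12 and TYK2 above IFNAR2 in 13. JAK1 lay at the 93.7th percentile of mean FPKM among tested genes, IRF1 at the 70.2nd, SOCS3 at the 44.5th and IFNT2 at the 17.8th.

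**Figure D1:**
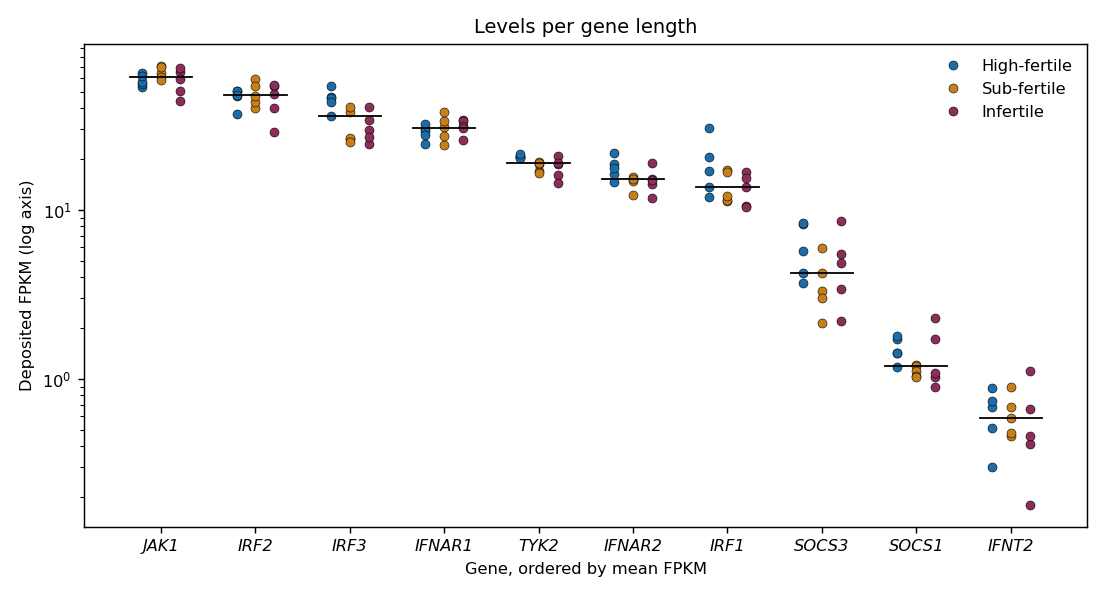
Deposited FPKM (log axis) of the 10 genes, ordered by mean, with 1 point for each of 15 heifers coloured by fertility class and a line at the median over all heifers. The order runs from JAK1, with a mean of 60.3, down to IFNT2, with a mean of 0.602, and the points of IRF3 and IFNAR1 and of IFNAR2 and IRF1 overlap.

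The genes also differed in how much they varied between heifers. Over 15 libraries the coefficient of variation of CPM was 11% for TYK2, 12.4% for JAK1 and 13.6% for IFNAR1. It reached 43.7% for SOCS3, 41.3% for IFNT2 and 33.6% for IRF1. Low counts vary more, so the SD of log2 CPM within classes was also set beside that of genes of like level. On that scale TYK2, with an SD of 0.14, was at the 10th percentile of 1700 such genes. SOCS3, with an SD of 0.61, was at the 76.8th percentile and IRF1, with 0.39, at the 71.1st. IFNT2, with an SD of 0.65, was at the 45.9th percentile, so its wide spread is usual for a gene counted this thinly.

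IFNT2, the interferon tau gene, was counted at 12 to 74 reads per library. In the High-fertile heifers 1 to 5 its level was 0.396, 0.893, 1.16, 0.677 and 0.976 CPM. In the Sub-fertile heifers it was 0.601, 0.764, 0.865, 1.21 and 0.638 CPM, and in the Infertile heifers 0.251, 0.532, 0.589, 0.857 and 1.51 CPM. The classes overlapped completely, and the lowest and the highest library were both Infertile. The exact Poisson 95% interval, which covers counting error only, was 0.130 to 0.439 CPM for Infertile 1 and 1.15 to 1.94 CPM for Infertile 5, so these animals differed by more than counting error. The class means were 0.821 ± 0.295, 0.816 ± 0.245 and 0.747 ± 0.476 CPM (SD, n = 5 each). The log2 fold change was -0.0073 ± 0.420 (SE) for Sub-fertile and -0.14 ± 0.421 for Infertile against High-fertile, with edgeR adjusted p = 0.994 and 0.906. The values were -0.11 and -0.083 with set as a covariate. Within the set of 8 they were 0.16 and -0.75, and Infertile against Sub-fertile was -0.91 there against -0.13 over all libraries. The 95% interval of the Sub-fertile difference, -0.90 to 0.89, takes in changes of nearly 1 log2 unit in both directions. Its width holds the spread between 5 heifers per class as well as counting error, so smaller differences could have been missed.

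The identity of these reads is uncertain, because the bovine genome carries many type I interferon genes, among them near-identical copies. By description the table lists 46 type I interferon entries, near-identical or not. Together they held 221 to 505 counts per library, of which IFNT2 took 9.76%. By mean FPKM IFNT2, at 0.602, ranked 3rd of the 46, behind IFNB1 at 1.83 and IFNE, the interferon that reproductive epithelium makes on its own, at 0.763. A separate entry for an interferon-tau-like gene, IFN-TAU, held 9 counts in all libraries together. Genes that mark the trophoblast, the embryonic tissue that secretes interferon tau, were mostly at or near 0. Of 26 such genes in the table, 15 had no count in any library, among them PAG11, TKDP1, TKDP4, PRP1 and CSH2. The other pregnancy-associated glycoprotein (PAG) and trophoblast Kunitz domain genes, PAG1 left out, held 1 to 20 counts per library and 134 in all. Only 3 genes of the list had counts in every library: PAG1 (107 to 1155), SSLP1 (15 to 446) and ELF5 (13 to 246), an epithelial factor. The summed trophoblast list, which PAG1 led, stood at 5.75 to 20.3 CPM in High-fertile, 8.35 to 13.5 in Sub-fertile and 9.32 to 26.5 in Infertile libraries. Because the biopsy followed a flush of the uterus, these counts cannot tell whether a conceptus had been present. The source of the IFNT2 reads was not tested.

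IFNAR1, the receptor chain that holds TYK2, was close to level across classes. Its CPM was 99.3, 96.4, 92.3, 81.6 and 106 in High-fertile heifers 1 to 5. It was 102, 108, 76.8, 92.9 and 126 CPM in the Sub-fertile and 120.3, 109, 100.4, 83.7 and 103 CPM in the Infertile heifers. The ranges overlapped, and the log2 fold changes against High-fertile were 0.09 ± 0.134 for Sub-fertile and 0.12 ± 0.134 for Infertile (edgeR adjusted p = 0.734 and 0.714). With set as a covariate they were -0.015 and 0.039, and within the set of 8 -0.16 and 0.11.

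IFNAR2, the chain that holds JAK1 and supplies most of the ligand-binding affinity, had lower means in both lower fertility classes. It stood at 50.1, 39.1, 43.7, 47.7 and 57.6 CPM in the High-fertile heifers. In the Sub-fertile heifers it was 40.7, 40.9, 31.5, 41.0 and 40.8 CPM, and in the Infertile heifers 54.0, 40.0, 36.8, 39.6 and 32.5 CPM. Of the Sub-fertile animals 4 lay between 40.7 and 41.0 CPM, and Sub-fertile 3 stood below them. High-fertile 2 fell among the Sub-fertile values, and Infertile 1, 2 and 4 within the High-fertile range. This gave a log2 fold change of -0.29 ± 0.145 for Sub-fertile (edgeR adjusted p = 0.363) and -0.23 ± 0.145 for Infertile (edgeR adjusted p = 0.523), and with set as a covariate -0.23 and -0.20. Within the set of 8 the values were -0.38 and -0.017.

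The receptor subunits were thus not in a fixed proportion. The FPKM of IFNAR1 over that of IFNAR2 was 1.63 ± 0.232 in High-fertile, 2.09 ± 0.254 in Sub-fertile and 2.10 ± 0.346 in Infertile heifers (SD, n = 5 each). The set of 8 libraries had a mean ratio of 1.73 ± 0.212 and the set of 5 one of 2.29 ± 0.231, with no overlap between 1.38 to 1.99 and 2.03 to 2.56. Within the Sub-fertile class the ratio was 2.03 to 2.50 in the set of 5 and 1.83 to 1.97 in the set of 8, and within the Infertile class 2.20 to 2.56 and 1.71 to 1.80. Ratios were not tested.

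JAK1, the kinase bound to IFNAR2, measured 289, 300.4, 309.5, 354 and 334 CPM in the High-fertile heifers. It measured 383, 345, 319, 326 and 381 CPM in the Sub-fertile and 289.8, 236, 344, 315 and 384 CPM in the Infertile heifers. The lowest library was Infertile 2, of the set of 2, and 3 of the 5 libraries in the set of 5 had the highest values, at 381 to 384 CPM. The log2 fold changes were 0.14 ± 0.128 for Sub-fertile and -0.017 ± 0.128 for Infertile against High-fertile (edgeR adjusted p = 0.551 and 0.967). These were -0.059 and -0.13 with set as a covariate.

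TYK2, the kinase bound to IFNAR1, was the only member whose High-fertile range of CPM overlapped neither of the other classes. The 5 High-fertile heifers lay in a narrow band, at 139, 137, 138, 137 and 143 CPM. The Sub-fertile heifers measured 113, 122, 124, 130.4 and 112 CPM and the Infertile heifers 134, 137, 104, 123 and 98.3 CPM. In CPM all 10 animals of the lower classes were below the lowest High-fertile animal, although Infertile 2 was close to it. In deposited FPKM, Infertile 2 overlapped the High-fertile range. It stood at 20.76, above High-fertile 2, 3 and 4 at 20.53, 20.57 and 20.29. The means were 139 ± 2.36, 120.2 ± 7.84 and 119 ± 17.2 CPM. The fitted log2 difference was -0.21 ± 0.102 for Sub-fertile (edgeR adjusted p = 0.362) and -0.22 ± 0.102 for Infertile (edgeR adjusted p = 0.451), so neither passed the threshold. The lowest TYK2 values belonged to the set of 5, and the Sub-fertile difference shrank to -0.047 with set as a covariate and was -0.13 within the set of 8. The Infertile difference was then -0.13 and -0.12.

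The ratio of the kinases followed the sets. The FPKM of JAK1 over that of TYK2 was 3.49 to 4.81 in the set of 5, 2.67 to 3.18 in the set of 8, and 2.12 and 2.55 in the set of 2. By class it was 2.81 ± 0.234 in High-fertile, 3.62 ± 0.538 in Sub-fertile and 3.36 ± 1.08 in Infertile heifers.

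**Figure D2:**
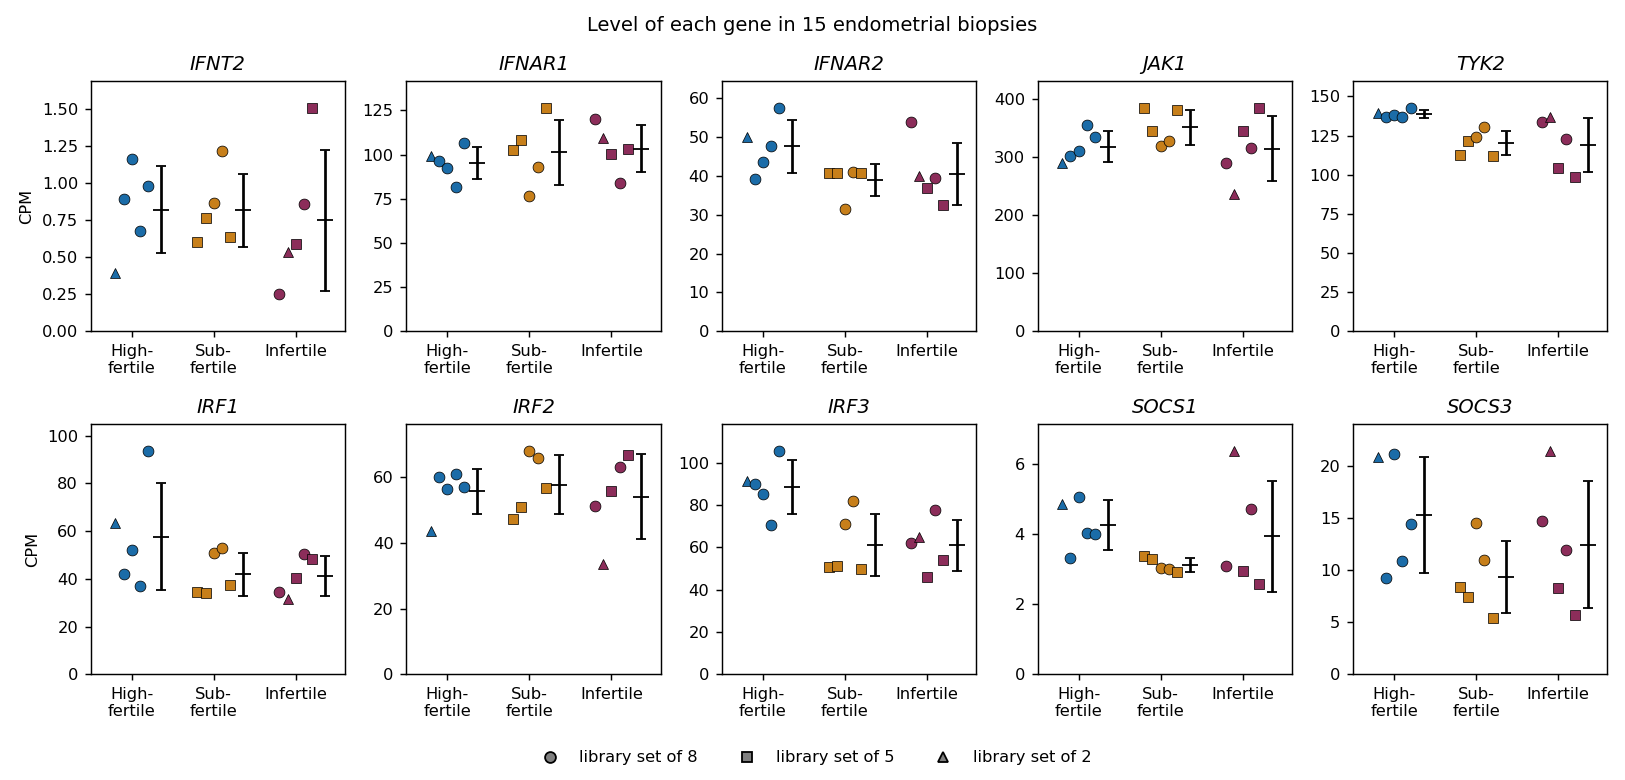
CPM of each gene in High-fertile, Sub-fertile and Infertile heifers (linear axes from 0). Points are heifers, the marker shape gives the library set, and the bar at the right of each class is the mean ± SD (n = 5). IRF3 is at most 53.8 CPM in the 5 libraries of the set of 5 (squares) and at least 62.0 CPM in the other 10. TYK2 is below the High-fertile band in all 10 other heifers.

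IRF1, the interferon-induced activator, was highest in single High-fertile animals. It stood at 63.5, 42.1, 52.2, 37.1 and 93.6 CPM in the High-fertile heifers, the last being the highest of all 15. It was 34.6, 34.3, 50.8, 52.8 and 37.5 CPM in the Sub-fertile and 34.5, 31.6, 40.5, 50.6 and 48.5 CPM in the Infertile heifers. The classes overlapped, since High-fertile 2, 3 and 4 lay within the range of the others. The log2 fold change was -0.46 ± 0.236 for Sub-fertile (edgeR adjusted p = 0.366) and -0.49 ± 0.237 for Infertile (edgeR adjusted p = 0.458). Without High-fertile 5 these values were -0.21 and -0.24, and with set as a covariate -0.39 and -0.41. Within the set of 8 they were -0.13 and -0.41. Leukocyte markers, which include PTPRC, were also lower: their summed level was 87.5 to 152 CPM in High-fertile, 76.1 to 93.3 in Sub-fertile and 63.2 to 129 in Infertile libraries, with 10 of 10 markers lower in both comparisons. Endothelial markers, led by VWF, were lower in 6 of 6 in both comparisons, at summed levels of 731 to 1349, 570 to 921 and 578 to 907 CPM. Smooth muscle markers were lower in 6 of 6 in Sub-fertile and 2 of 6 in Infertile heifers, with median log2 fold changes of -1.06 and 0.073. With set as a covariate these smooth muscle medians were 0.020 and 0.39. The medians with set as a covariate were -0.38 and -0.31 for leukocyte markers, and -0.14 and -0.35 for endothelial markers. Other lists were lower too: stroma in 7 of 8 and 6 of 8, uterine in 6 of 6 and 3 of 6, epithelial in 5 of 8 and 4 of 8. Their medians with set as a covariate were -0.20 and -0.33, 0.13 and 0.087, and 0.094 and 0.19. The share of all tested genes that was lower was 49.0% and 46.5%. No marker of these lists passed the adjusted threshold, and the part of these cell types in the values of IRF1 and the other members was not tested. In bulk tissue, fewer cells of a type and less RNA per cell cannot be told apart.

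IRF2, the repressor that competes with IRF1, showed no class difference of comparable size. Its CPM was 43.8, 60.1, 56.6, 61.2 and 57.0 in the High-fertile heifers. It was 47.4, 50.9, 68.1, 65.9 and 56.9 CPM in the Sub-fertile and 51.2, 33.7, 56.0, 63.1 and 66.8 CPM in the Infertile heifers. The lowest High-fertile and the lowest Infertile library were the 2 that form the set of 2. The log2 fold changes of IRF2 were 0.05 ± 0.171 and -0.04 ± 0.171 (edgeR adjusted p = 0.882 and 0.935), with 95% intervals of -0.31 to 0.42 and -0.41 to 0.32. They were -0.0041 and -0.016 with set as a covariate, and within the set of 8 0.18 and -0.050. The FPKM ratio of IRF1 to IRF2 was 0.413 ± 0.178 in High-fertile, 0.280 ± 0.0222 in Sub-fertile and 0.300 ± 0.0399 in Infertile heifers, and the High-fertile range of 0.235 to 0.636 enclosed both of the others.

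IRF3, the factor that answers to foreign nucleic acid, had the smallest unadjusted p of the members. The High-fertile heifers measured 91.3, 89.9, 85.3, 70.5 and 105 CPM. The Sub-fertile heifers measured 50.9, 51.2, 71.1, 81.8 and 49.9 CPM and the Infertile heifers 62.0, 65.1, 46.1, 77.6 and 53.8 CPM. All but High-fertile 4 exceeded every Sub-fertile and Infertile value, and 3 animals of the lower classes (Sub-fertile 3 and 4, Infertile 4) exceeded High-fertile 4. The means were 88.5 ± 12.6, 61.0 ± 14.7 and 60.9 ± 11.9 CPM. Against High-fertile, the log2 fold change was -0.54 ± 0.174 in both comparisons (edgeR adjusted p = 0.360 for Sub-fertile and 0.435 for Infertile). Both 95% intervals lay below 0, from -0.91 to -0.17, but neither comparison passed the adjusted threshold. With set as a covariate the values were -0.26 and -0.34, and within the set of 8 they were -0.21 and -0.34. IRF3 was the only member with an unadjusted p under 0.05 for any difference among the classes (edgeR adjusted p = 0.550).

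SOCS1, which binds and inhibits JAK1 and TYK2 directly, was a low transcript. It stood at 4.85, 3.31, 5.06, 4.04 and 3.99 CPM in the High-fertile heifers. The Sub-fertile heifers were tightly grouped at 3.37, 3.29, 3.03, 3.0 and 2.91 CPM, and the Infertile heifers spread over 3.08, 6.36, 2.95, 4.71 and 2.58 CPM. Only High-fertile 2 fell inside the Sub-fertile range, while the Infertile range enclosed the High-fertile one. The log2 fold change of SOCS1 was -0.45 ± 0.245 for Sub-fertile (edgeR adjusted p = 0.375) and -0.11 ± 0.244 for Infertile (edgeR adjusted p = 0.870), or -0.19 and -0.080 with set as a covariate. Within the set of 8 these were -0.46 and -0.085.

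SOCS3, best known as the feedback inhibitor of cytokines that signal through gp130, had the largest coefficient of variation of CPM. It was 20.9, 9.29, 21.2, 10.9 and 14.4 CPM in the High-fertile heifers. It was 8.38, 7.46, 14.5, 11 and 5.46 CPM in the Sub-fertile and 14.8, 21.5, 8.32, 12 and 5.72 CPM in the Infertile heifers. The libraries under 9 CPM were the 5 of the set of 5, and no others. This gave a log2 fold change of -0.71 ± 0.359 for Sub-fertile (edgeR adjusted p = 0.363) and -0.30 ± 0.357 for Infertile (edgeR adjusted p = 0.731). With set as a covariate both were near 0, at -0.086 and -0.053, and within the set of 8 they were -0.14 and -0.068. The immediate early genes respond to tissue handling as well as to cytokines. Their list, in which the heat shock gene HSPA1A was highest, had summed levels of 714 to 1185 CPM in the set of 5. In the set of 8 the sum was 902 to 2220 CPM. The list's median log2 fold change was -0.23 for Sub-fertile and 0.096 for Infertile against High-fertile, or 0.36 and 0.21 with set as a covariate. The part of these genes in the SOCS3 values was not tested.

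Set side by side, 7 of the 10 members were lower in Sub-fertile and 9 of 10 lower in Infertile than in High-fertile heifers. The median log2 fold change was -0.25 and -0.18, against 0.013 and 0.036 over all tested genes, of which 49.0% and 46.5% were lower. With set as a covariate 10 and 9 of the 10 members were lower, but the medians were smaller, at -0.098 and -0.11. Over all tested genes these medians were 1.1e-05 and 0.011. The 2 comparisons share the High-fertile libraries, so they are not independent. In Sub-fertile against High-fertile, 0 of 10 members passed an adjusted p of 0.05 in edgeR, as did 0% of 19962 genes. 1 member, IRF3, had an unadjusted p under 0.05, where 13.7% of all genes did, and 1 member, TYK2, did not overlap, where 5.07% of all genes did not. In Infertile against High-fertile, 0 members and 0% of genes passed. 2 members, IRF3 and TYK2, had an unadjusted p under 0.05, against a background of 11%. 1 member, TYK2, did not overlap in CPM, against 2.22%, though in FPKM Infertile 2 lay within the High-fertile range. With 10 genes the counts of members that passed or did not overlap are near the background. Nothing is read from them about the pathway. Under 1 alternative chosen after seeing the data, limma-voom with sample quality weights, 4 members (TYK2, IRF1, IRF3 and SOCS3) passed in Sub-fertile against High-fertile, but so did 35.9% of all genes.

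Infertile and Sub-fertile heifers were compared last. The largest log2 differences were 0.41 ± 0.358 for SOCS3, 0.34 ± 0.245 for SOCS1 and -0.16 ± 0.128 for JAK1 (edgeR adjusted p = 0.998 for each), and the other 7 lay between -0.13 and 0.06. With set as a covariate SOCS3, SOCS1 and JAK1 differed by 0.033, 0.11 and -0.073, and without Infertile 2 by 0.12, 0.095 and -0.075. No member passed the adjusted threshold, had an unadjusted p under 0.05 or failed to overlap, where the background was 0%, 2.63% and 0.205%. In the test of any difference among the classes 0 members passed, as did 0% of genes, and 1 member had an unadjusted p under 0.05, against 8.42% of genes. With quality weights 3 members passed that test, against 26.7% of genes.

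**Figure D3:**
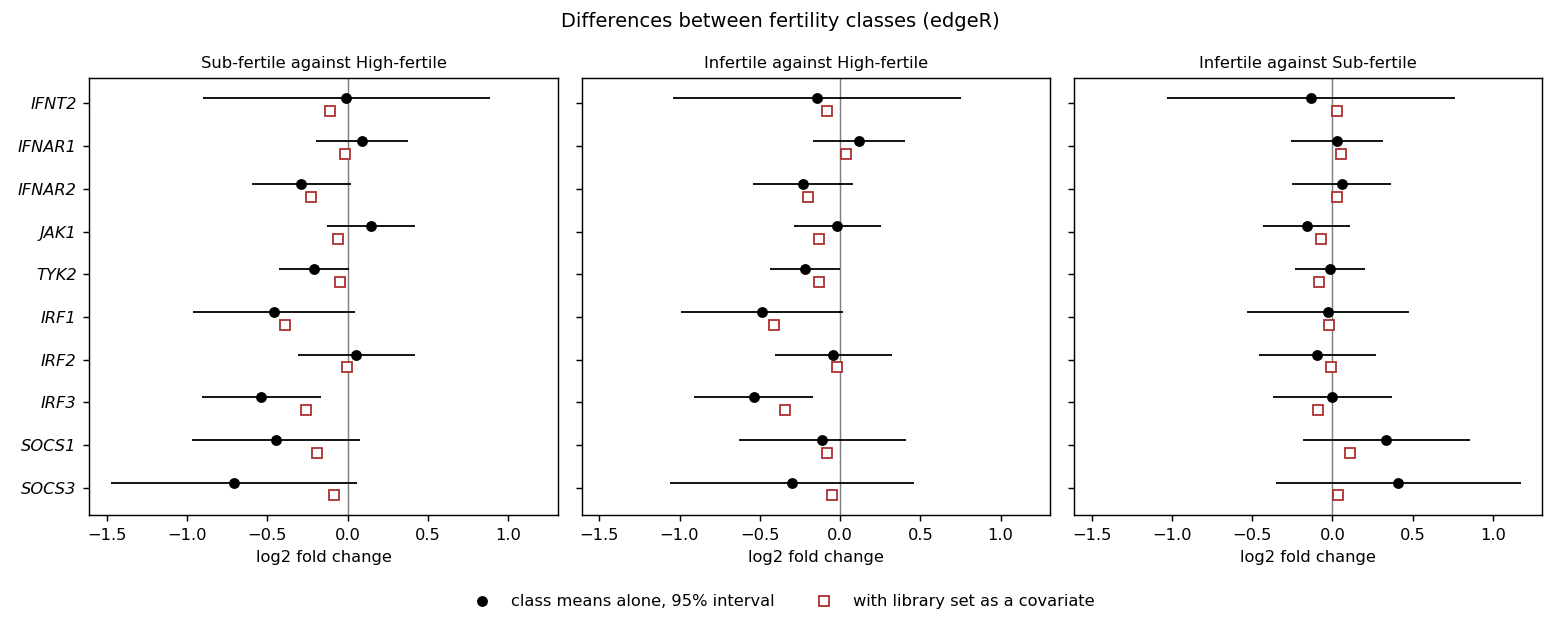
Log2 fold change of the 10 genes in the 3 pairwise comparisons. Filled points are the edgeR estimates with class means alone and lines their 95% intervals, and open squares are the estimates with library set as a covariate. For SOCS3 in Sub-fertile against High-fertile the estimate moves from -0.71 to -0.086, and for IRF1 from -0.46 to -0.39 (-0.13 within the set of 8, not drawn).

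IRF3, SOCS3, TYK2 and JAK1 differed between the library sets. With class in the model, the set of 5 against the set of 8 gave an adjusted p under 0.05 for 4 of 10 members, against 30.7% of all tested genes. That count is near the background, so nothing is read from it about the pathway. IRF3 was lower in the set of 5, at 50.4 ± 2.80 (SD, n = 5) against 80.5 ± 13.5 CPM (SD, n = 8), a log2 difference of -0.53 ± 0.110 (edgeR adjusted p = 0.00285). For SOCS3 the log2 difference was -0.90 ± 0.229 (7.07 ± 1.40 against 13.5 ± 3.70 CPM, edgeR adjusted p = 0.0101). For TYK2 it was -0.24 ± 0.0636 (109.8 ± 8.91 against 133 ± 6.89 CPM, edgeR adjusted p = 0.0110). JAK1 was higher in the set of 5, by 0.25 ± 0.0775 (367 ± 21.0 against 318 ± 19.9 CPM, edgeR adjusted p = 0.0287). The first 3 genes did not overlap between these sets, as was true, in the lower direction, of 13.6% of all genes. IFNT2, IRF1 and IFNAR2 did not pass this test, with log2 differences of -0.026 ± 0.419, -0.20 ± 0.249 and -0.094 ± 0.151 (edgeR adjusted p = 0.975, 0.603 and 0.695). The sets were drawn from the counts of these same libraries, so the p-values describe the split and are no independent test of it. The labels do not say what separates the sets.

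The members were next set beside the response to interferon in the same biopsies. The ISG score is the mean log2 CPM of 34 tested interferon-stimulated genes, none of them a member. It was 5.33 ± 0.738 in High-fertile, 5.11 ± 0.579 in Sub-fertile and 4.81 ± 0.426 in Infertile heifers (SD, n = 5 each), with overlapping ranges of 4.47 to 6.02, 4.65 to 6.12 and 4.40 to 5.29. ISG15, the ubiquitin-like protein taken as the classical sign of interferon tau, averaged 44.9 ± 38.7, 25.5 ± 38.0 and 12.6 ± 8.01 CPM. MX1, an antiviral GTPase, averaged 291 ± 170, 237 ± 188 and 165 ± 78.4 CPM. Neither passed the threshold in Infertile against High-fertile, with log2 fold changes of -1.84 ± 0.903 and -0.82 ± 0.536 (edgeR adjusted p = 0.461 and 0.536), or -0.92 and -0.53 with set as a covariate.

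IRF1 followed the score most closely. Over 15 heifers Pearson's r was 0.743 (permutation p = 0.00111) and Spearman's rho 0.721 (permutation p = 0.00311), both two-sided. Without High-fertile 5 and Sub-fertile 4, the libraries farthest from the median score, r was 0.658, and within the set of 8 it was 0.643. With class in the model, the slope of IRF1 was 0.48 ± 0.132 log2 units per unit of score, with an edgeR adjusted p of 0.936 over all genes. The slope was 0.48 also with set as a covariate (edgeR adjusted p = 0.511).

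IRF3 came next, with r = 0.597 (permutation p = 0.0208) and rho = 0.50 (permutation p = 0.0590). Its r was lower, at 0.434, without the same 2 libraries, and leaving them out also narrows the range of scores. Within the set of 8, which holds both of these libraries, the r of IRF3 was 0.698. Its slope was 0.28 ± 0.112 (edgeR adjusted p = 1.000), and 0.22 ± 0.0547 with set as a covariate (edgeR adjusted p = 0.371). In the set of 5, whose scores ran only from 4.65 to 5.22, IRF3 was low in every library, as the plot of level against score shows.

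The ligand and receptor genes had smaller correlations with the score. For IFNT2, r was 0.346 (permutation p = 0.207) and rho 0.493 (permutation p = 0.0639). Without the 2 farthest libraries its r was 0.143, and within the set of 8 it was 0.556. For IFNAR1, r was -0.108, for IFNAR2 0.182, for JAK1 0.0579 and for TYK2 0.208 (permutation p = 0.703, 0.515, 0.841 and 0.457). SOCS1 and SOCS3, inhibitors that the same cytokines can induce, had r of -0.0941 and -0.00584 (permutation p = 0.741 and 0.983), and IRF2 had 0.289 (permutation p = 0.301). Within the set of 8, r was 0.0622 for IFNAR1, -0.00151 for IFNAR2, 0.253 for JAK1 and 0.0581 for TYK2. There it was -0.225 for SOCS1, -0.474 for SOCS3 and 0.395 for IRF2. These are 10 relations, and 0 members passed an adjusted p of 0.05 for the slope, against 0.15% of all genes. At an unadjusted p under 0.05 there were 2 members, against 2.41% of all genes. Of the 30 genes that passed, 21 were members of the score itself.

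**Figure D4:**
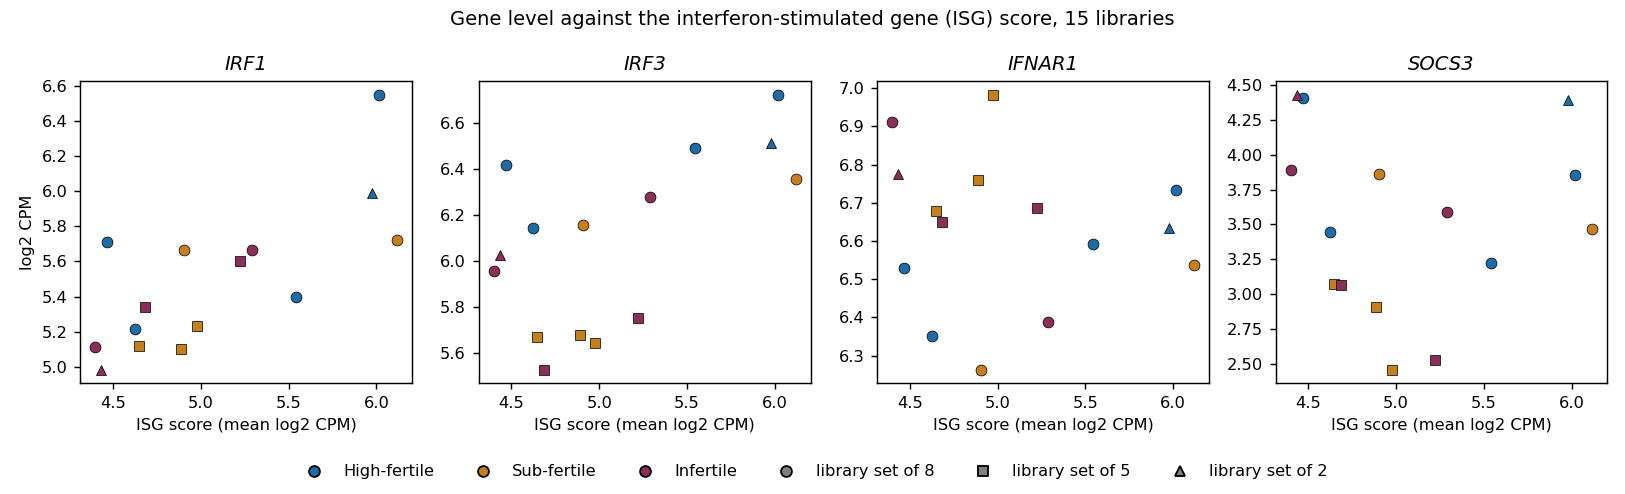
Log2 CPM of IRF1, IRF3, IFNAR1 and SOCS3 against the ISG score (mean log2 CPM of 34 interferon-stimulated genes) in 15 heifers, coloured by class and shaped by library set. IRF1 is higher in libraries with a higher score (r = 0.743). IRF3 does so within the set of 8 (r = 0.698) while the set of 5 lies below it. Over all heifers IFNAR1 has r = -0.108 and SOCS3 r = -0.00584, and within the set of 8 they have 0.0622 and -0.474.

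Among themselves the members formed no single block. Of 45 pairs, 9 had a Pearson r above 0.5 over the 15 libraries and 4 an r below -0.5, with a median of 0.11. These correlations share library and depth and are given as description. TYK2 and IRF3 had an r of 0.80 and TYK2 and SOCS3 0.77, but after the mean of each library set was removed these were 0.30 and 0.19. JAK1 and SOCS3 had an r of -0.80, and -0.26 with set means removed. JAK1 and TYK2, which act on the same receptor, had -0.65, and -0.013 with set means removed. IRF1 and IRF3 had 0.72 and 0.82, and IFNAR2 and TYK2 0.66 and 0.68. IRF2 had 0.61 and 0.52 with IFNT2, and 0.58 and 0.53 with JAK1. The receptor chains IFNAR1 and IFNAR2 had 0.32 over all libraries, 0.62 with set means removed and 0.75 within the set of 8. SOCS1 and SOCS3 had 0.77 and 0.44.

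For each member the 3 most similar genes were sought among 14959 genes with a symbol, by Pearson r of log2 CPM over 15 libraries. IFNT2 was most like LPAR3, a lysophosphatidic acid receptor (r = 0.92), APOBEC3B (0.90) and BCAR3 (0.86), and these stayed at 0.93, 0.90 and 0.89 with set means removed. IRF1 was most like BOLA-DMB, a class II histocompatibility gene (0.90), IGFBP2 (0.88) and SLC35D3 (0.86). IRF2 was most like FDFT1, which makes squalene (0.96), B4GALNT2 (0.95) and RFFL (0.94). IRF3 was most like FAM65A-2 (0.97), STAT6 (0.96) and SHISA5 (0.96).

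For the receptor and its kinases, IFNAR1 was closest to DDIT4L (0.88) and SLIRP (0.86). IFNAR2 was closest to FXYD7 (0.92), DCTN2 (0.90) and EMP3 (0.89). JAK1 was closest to ITM2B (0.95), FRG1 (0.95) and RNF13 (0.94), and TYK2 to PLA2G4B (0.97), SLC12A9 (0.97) and SETD1A (0.96). SOCS1 was closest to the matrix genes PCOLCE (0.91) and FBLN1 (0.90) and to TTC7A (0.89). SOCS3 was closest to CORO7 (0.94), YIF1B (0.92) and NUP188 (0.92), and these fell to 0.77, 0.62 and 0.59 with set means removed. The genes then most like SOCS3 were the immediate early genes JUNB (0.86), IER2 (0.86) and FOS (0.79), an order computed after the data had been seen. Over the 15 libraries their r with SOCS3 was 0.89, 0.78 and 0.53.

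The rest of the pathway was read from lists of related genes. No gene of any list passed the adjusted threshold in any pairwise comparison. Of all tested genes, 49.0% were lower in Sub-fertile and 46.5% in Infertile than in High-fertile heifers. Among the STAT factors and IRF9, 6 of 8 were lower in Sub-fertile and 7 of 8 in Infertile heifers than in High-fertile. The median log2 fold changes were -0.14 and -0.18, or -0.12 and -0.15 with set as a covariate. IRF9, the DNA-binding subunit of the complex that turns on ISGs, averaged 69.1 ± 22.1, 46.4 ± 21.6 and 39.8 ± 12.8 CPM in High-fertile, Sub-fertile and Infertile heifers. Its log2 fold change in Infertile was -0.79 ± 0.304 (edgeR adjusted p = 0.439), or -0.57 with set as a covariate. STAT6, the mediator of interleukin 4, averaged 123 ± 10.5, 92.8 ± 18.9 and 96.9 ± 22.5 CPM, and its difference in Sub-fertile was -0.41 ± 0.163 (edgeR adjusted p = 0.360), or -0.15 with set as a covariate.

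Of the other IRF genes, 6 of 8 were lower in Sub-fertile and 5 of 8 in Infertile heifers. Their median log2 fold changes were -0.41 and -0.24, or -0.046 and -0.10 with set as a covariate. IRF4, a factor of lymphocytes and plasma cells, was a low transcript. It averaged 2.63 ± 0.352 CPM in High-fertile and 1.10 ± 0.368 CPM in Sub-fertile heifers, which did not overlap. The fitted log2 difference was -1.25 ± 0.413 (edgeR adjusted p = 0.360), and -0.82 with set as a covariate. In Infertile heifers IRF4 averaged 1.73 ± 1.11 CPM and overlapped both. IRF8, a factor of myeloid and B cells, averaged 6.59 ± 0.247, 4.96 ± 1.39 and 9.59 ± 8.90 CPM, and the wide Infertile SD leaves its 0.54 ± 0.424 within the spread (edgeR adjusted p = 0.590, and 0.33 with set as a covariate).

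The other kinases and receptor chains, 6 genes, had medians near 0, at 0.032 and 0.11. JAK2, the kinase of interferon gamma and hormone receptors, averaged 50.1 ± 1.04, 64.6 ± 13.3 and 53.8 ± 13.2 CPM. Its Sub-fertile log2 fold change of 0.37 ± 0.170 (edgeR adjusted p = 0.360) was -0.0040 with set as a covariate. JAK3, a kinase of lymphocyte cytokine receptors, averaged 63.4 ± 20.6, 55.4 ± 11.8 and 115 ± 130 CPM, so its SD in Infertile heifers exceeded the mean.

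Among 15 other negative regulators, 7 were lower in each of the lower classes against High-fertile. PIAS3, an inhibitor of STAT3, averaged 40.8 ± 2.17 CPM in High-fertile and 30.6 ± 3.43 CPM in Sub-fertile heifers without overlap. Its log2 fold change was -0.41 ± 0.165 (edgeR adjusted p = 0.360), or -0.12 with set as a covariate. SOCS4 went the other way, from 19.2 ± 1.01 to 23.8 ± 3.29 CPM, a difference of 0.31 ± 0.130 (edgeR adjusted p = 0.360), or 0.096 with set as a covariate. Neither passed the adjusted threshold.

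Upstream of IRF3, 4 of 7 genes that activate it were lower in Sub-fertile and 1 of 7 in Infertile heifers, with medians of -0.014 and 0.083. TBK1, the kinase that phosphorylates IRF3, averaged 42.4 ± 4.89, 53.9 ± 8.16 and 47.3 ± 12.7 CPM, a Sub-fertile log2 fold change of 0.35 ± 0.169 (edgeR adjusted p = 0.362) and 0.0090 with set as a covariate. IKBKE, its relative, averaged 8.07 ± 1.38, 6.74 ± 2.50 and 11.3 ± 9.54 CPM.

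Of 14 genes associated with IRF1, 8 were lower in Sub-fertile and 10 in Infertile heifers, with medians of -0.12 and -0.18. With set as a covariate both medians were -0.14. PSMB10, an immunoproteasome subunit, averaged 41.7 ± 11.2, 29.5 ± 9.72 and 31.5 ± 5.64 CPM, with a Sub-fertile log2 fold change of -0.50 ± 0.228 (edgeR adjusted p = 0.360), or -0.20 with set as a covariate. With set means removed its r with IRF1 was 0.93, the highest of any gene compared, in an order computed after the data had been seen. Over the 15 libraries that r was 0.82, and PSMB10 was not among the 3 genes most like IRF1. CIITA, the switch for class II histocompatibility genes, averaged 12.2 ± 4.28, 7.67 ± 2.16 and 9.03 ± 1.63 CPM, with a Sub-fertile difference of -0.66 ± 0.254 (edgeR adjusted p = 0.360), or -0.46 with set as a covariate. The leukocyte markers given above were lower in the same comparison, and their part in the values of IRF4, PSMB10 and CIITA was not tested.

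In the interleukin 6 family, whose receptors induce SOCS3, 6 of 8 tested genes were lower in Sub-fertile and 5 of 8 in Infertile heifers. The median log2 fold change was -0.28 in both, or -0.022 and -0.37 with set as a covariate. IL11RA, the interleukin 11 receptor, averaged 51.2 ± 7.93 CPM in High-fertile and 34.0 ± 6.04 CPM in Sub-fertile heifers without overlap. Its log2 fold change was -0.59 ± 0.228 (edgeR adjusted p = 0.360), or -0.25 with set as a covariate. LIFR, the receptor for leukemia inhibitory factor, averaged 427 ± 36.1, 526 ± 124 and 362 ± 129 CPM. Infertile against Sub-fertile gave -0.54 ± 0.221 for LIFR (edgeR adjusted p = 0.998), and -0.43 with set as a covariate.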

How the data were processed

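The authors deposited a table of read counts per gene and FPKM values, per the file headers, for 15 polyA RNA libraries from stranded kits (per the labels' protocols). FastQC, Subread, featureCounts, edgeR and build UMD3.1 are named in the submitters' processing notes. The sources used here give neither their versions nor whether strand or multiply placed reads were counted.

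Deposited counts were tested in R 4.3.3 with edgeR 4.0.16 (filterByExpr, TMM, quasi-likelihood test with robust estimation). The model held a mean per class (15 libraries, 12 residual degrees of freedom). P-values were two-sided and adjusted by Benjamini-Hochberg over 19962 genes. FPKM values were used as deposited for levels and ratios between genes. Log2 CPM has a prior count of 2. A count of 0 allows up to 3 counts, 0.0492 to 0.0783 CPM by library. Permutation p-values used 100000 resamples (scipy 1.17.1). The script was tested on simulated data.

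The members and gene lists were chosen with earlier results of these data known. Beside the 10 members, the 2 genes of each pathway list with the smallest p for any class difference are named, with ISG15, MX1, IRF9 and the 3 genes most like each member, of which 1 is not reported here. The 46 type I interferon entries, the genes most like a member with set means removed, limma-voom (limma 3.58.1) with sample quality weights and the likelihood ratio test were chosen after seeing the data. Other alternatives were scalings, filters, DESeq2 1.42.0, limma-voom, library sets, and leaving out each library.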

Additional observations from a re-analysis of the deposited data

Results flagged for a closer look

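In 2 of 30 groups of 5 heifers, 1 library stood far from the other 4 relative to the range of its group, and chance flags about 1 in 20 groups. IFNAR2 in Sub-fertile 3 was 31.5 CPM, below the other Sub-fertile heifers at 40.7 to 41.0 CPM. IRF2 in High-fertile 1 was 43.8 CPM, below the other High-fertile heifers at 56.6 to 61.2 CPM, and that library is 1 of the 2 in the smallest set.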

How the results depend on the processing

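The count of members past the adjusted threshold was 0 in every comparison under each alternative run except limma-voom with sample quality weights, which gave 4 in Sub-fertile against High-fertile (TYK2 -0.23, IRF1 -0.52, IRF3 -0.72 and SOCS3 -1.03, adjusted p = 0.0185, 0.0463, 0.00399 and 0.0163) and 3 for any difference among the classes. That alternative called 7162 and 5331 of all genes. DESeq2 called 18, 34 and 11 genes in the 3 pairwise comparisons and no member. No member followed the ISG score past the threshold under the alternatives run for it: RLE factors, library size alone, a stricter filter, set as a covariate, no set of 2, no class term, and each library left out. No paired analysis was possible because the replicate numbers follow the order of deposition and pair no animals. Of the member log2 fold changes under alternatives, 766 kept direction and side, 4 passed the threshold and 67 changed sign, all of these from values between -0.14 and 0.14, and the causes were not tested. Depth limits IFNT2 most, at 12 to 74 counts per library.

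In Sub-fertile against High-fertile, IFNT2 was 0.0044 with RLE factors, 4.8e-05 with library size alone, 0.031 with upper quartile scaling, 0.00014 without the filter, 0.0049 in DESeq2, 0.037 in limma-voom, 0.0011 with the 10 libraries compared and 0.16 within the set of 8. With set as a covariate IFNAR1 was -0.015, JAK1 -0.059 and IRF2 -0.0041. Within the set of 8 IFNAR1 was -0.16 and JAK1 -0.019. IRF2 was -0.067 with quality weights and -0.022 without the set of 2. In Infertile against High-fertile, JAK1 was 0.017 with upper quartile scaling, 0.060 with quality weights and 0.038 without the set of 2, and IRF2 0.011 and 0.012 under the last 2. In Infertile against Sub-fertile, IFNT2 was 0.027 with set as a covariate and TYK2 0.012 within the set of 8. Quality weights gave IFNAR1 -0.12, IFNAR2 -0.044, IRF1 0.20, IRF2 0.078 and IRF3 0.12. Without the set of 2 IRF1 was 0.053 and IRF2 0.035, and IRF3 was 0.0011 without the filter and 0.0050 in limma-voom.

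Leaving out 1 library at a time, in Sub-fertile against High-fertile, gave IFNT2 from -0.20 to 0.15, IFNAR1 from -0.0023 to 0.18 and IRF2 from -0.022 to 0.12. In Infertile against High-fertile it gave IFNT2 from -0.56 to 0.081, JAK1 from -0.10 to 0.070, IRF2 from -0.13 to 0.088 and SOCS1 from -0.35 to 0.0084. In Infertile against Sub-fertile it gave IFNT2 from -0.55 to 0.082, IFNAR1 from -0.065 to 0.12, IFNAR2 from -0.075 to 0.13, TYK2 from -0.067 to 0.049, IRF1 from -0.11 to 0.077, IRF2 from -0.18 to 0.034 and IRF3 from -0.095 to 0.14.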
